A study of Mus musculus with 12 samples.

Results

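Of the 4740 BMAL1-bound regions that the authors listed in EtOH-treated cells, 470 lay between genes and far from any gene start. A region belonged to this set when its midpoint fell outside the exon limits of all genes in the deposited count table and its closer edge was over 20 kb from the upstream end of each gene's outermost exon. The cells were mouse embryonic fibroblasts on the 129/sv background with the genotype per1 -/-, per2 -/-, nr1d1 -/-, nr1d2 -/-, and all carried a PER2-ER transgene, so both treatments share these deletions and this transgene. They received 1 µM 4-OHT (4-hydroxytamoxifen, which binds the estrogen receptor, the usual meaning of ER in a fusion of this kind) or its solvent, 0.1% EtOH, for 4 h. For each treatment 2 libraries each were made of BMAL1 ChIP DNA (Bethyl antibody A302-616A), of ChIP input and of mRNA, 12 libraries in 6 groups. The promoter that drives PER2-ER and whether the cells are 1 clone are not stated in the labels, and cells without the transgene were not analysed here.

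BMAL1 pairs with CLOCK to form the activator of the mammalian circadian clock, and the pair binds E-box DNA whose best-known form reads CACGTG. PER proteins, with their CRY partners, are the repressors that close the loop, and PER2 bound to CRY can take CLOCK-BMAL1 off DNA. The REV-ERB receptors encoded by Nr1d1 and Nr1d2 repress Bmal1 (Arntl) itself. BMAL1 is known to bind at promoters and also at distal enhancers. A distal region's target gene cannot be read from distance alone, so the nearest gene is used here as a name and a place and not as a target.

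The BMAL1 ChIP libraries rested on 13740997 and 20712373 reads with 4-OHT and 13502201 and 17635022 with EtOH, and the 470 regions together took 0.0578% and 0.0603% of those reads with 4-OHT against 0.208% and 0.198% with EtOH. The inputs placed 0.0128% and 0.0136% of reads there with 4-OHT and 0.0121% and 0.0129% with EtOH. The mRNA libraries held 60267540 to 89695667 counted reads. Of 12 fibroblast markers, 9 stood above 1 CPM (counts per 1000000 counted reads) in all 4 mRNA libraries, with Col1a1 between 5551 and 6887 CPM, while Thy1 and Lum had no read and Dcn at most 0.201 CPM. The summed fibroblast markers were 28910 and 30877 CPM with 4-OHT and 30188 and 27902 CPM with EtOH. Of the epithelial markers, Cdh1 averaged 14.9 CPM with 4-OHT and 12.4 CPM with EtOH, near the fibroblast marker Pdgfra (13.0 and 11.1 CPM with 4-OHT and EtOH), while Epcam, Krt8 and Krt18 stayed under 1 CPM. Of the immune markers, Cd68 averaged 2.95 CPM with 4-OHT and 3.03 CPM with EtOH and Ptprc was at most 0.126 CPM. The muscle marker Des averaged 0.867 CPM with 4-OHT and 0.671 CPM with EtOH, Myod1 had no read, and the 3 endothelial markers summed to at most 0.159 CPM in any library. Since no label states separate cultures for the replicates, p-values cover library-to-library spread only, and this may be technical.

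The far intergenic regions were short and scattered. Their distance to the nearest gene start ran from 20051 to 944231 bp, with a median of 56032 bp and quartiles of 33828 and 101500 bp, and 40 of them were more than 200 kb away. Regions just inside the limit were 20051 bp from Solh, 20130 bp from Bcl9l and 20143 bp from Shf, with log2 changes of −1.64, −1.80 and −1.14. Just outside it were regions 19694 bp from Sulf2, 19722 bp from Wisp2 and 19740 bp from Krt8, with log2 changes of −2.14, −1.12 and −2.20. The median length was 210 bp, against 236 bp for the 2944 regions at most 1 kb from a gene start, which are called promoter regions here. Another region lay within 20 kb of 125 members, and the median distance to the next region was 60633 bp. Chromosome 8 held the most members, 39 of the 470 (8.30%, against 6.98% of all other regions), and the X chromosome held 7.

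Intergenic here means outside the genes of the deposited count table, and a fuller annotation placed genes at many of these regions. In RefSeq (GRCm38.p6, the assembly behind mm10), 162 members had their midpoint inside a gene, 114 of them inside a long noncoding RNA (lncRNA) gene and 49 inside a protein-coding gene. The member 28260 bp from the Slc24a3 start, for example, lay inside the longer RefSeq model of Slc24a3, and those near Gse1 and Kifc3 lay inside the RefSeq models of these genes. RefSeq start sites were searched for 458 members, and 48 of these were within 1 kb of one. Outside RefSeq genes and more than 20 kb from each RefSeq start were 213 members. These 213 had a median log2 change of −1.67. Of them 206 (96.7%) were called lower after 4-OHT by the test described below, against 93.8% of all regions. The 48 members within 1 kb of a RefSeq start had a median of −1.52 with 42 called lower (87.5%). The difference between these shares was not tested.

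Sequence could be read where a member overlapped a RefSeq promoter window, the 250 bases before to 50 bases after a start. This held for 30 members, which overlapped 37 windows of 32 genes, and some of these windows overlap each other. The stretches printed here, chosen to compare strong members with and without an E-box and a weaker one with a pair of them, show the bases shared by the BMAL1 region and the window, on the strand of the RefSeq gene. They do not follow a ranking by signal. Members stronger than that weaker one were left out, among them those at Gm36769 and Gm36486, without CACGTG in the window, and at Gm32287, with 1 copy. Capitals mark CACGTG or the variant CACGTT. The letters are those of the C57BL/6J reference in RefSeq, GRCm38.p6, not of the 129/sv cells. Gm17382 is at chr17:26886197-26886389 (minus strand), 30702 bp from the Kifc5b start, Gm26901 at chr1:7398047-7398173 (minus), 308700 bp from Pcmtd1, and D730003I15Rik at chr1:191224363-191224503 (plus), 41030 bp from Atf3. Gm36495 is at chr12:16850886-16851183 (minus), 39755 bp from E2f6, Capn15 at chr17:25985747-25986037 (minus), 20051 bp from Solh, and D630024D03Rik at chr11:31824515-31824797 (minus), 47330 bp from Cpeb4. All are lncRNA genes except Capn15, which the count table lists under its older name Solh with a start farther downstream.
Gm17382: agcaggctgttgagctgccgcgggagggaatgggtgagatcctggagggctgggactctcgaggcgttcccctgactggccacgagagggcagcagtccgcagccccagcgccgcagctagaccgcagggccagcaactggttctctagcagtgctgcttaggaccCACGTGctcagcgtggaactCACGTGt
Gm26901: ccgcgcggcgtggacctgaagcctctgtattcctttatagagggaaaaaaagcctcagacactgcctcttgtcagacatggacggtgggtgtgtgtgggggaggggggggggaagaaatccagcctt
D730003I15Rik: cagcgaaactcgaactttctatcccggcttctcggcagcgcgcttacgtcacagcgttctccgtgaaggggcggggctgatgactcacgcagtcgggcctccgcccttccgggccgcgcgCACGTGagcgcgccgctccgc
Gm36495: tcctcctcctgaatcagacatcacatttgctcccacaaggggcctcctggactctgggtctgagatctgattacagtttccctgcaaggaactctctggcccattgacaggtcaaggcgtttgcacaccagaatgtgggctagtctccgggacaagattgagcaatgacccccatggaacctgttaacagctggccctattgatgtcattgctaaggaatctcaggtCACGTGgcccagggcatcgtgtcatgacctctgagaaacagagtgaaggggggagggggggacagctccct
Capn15: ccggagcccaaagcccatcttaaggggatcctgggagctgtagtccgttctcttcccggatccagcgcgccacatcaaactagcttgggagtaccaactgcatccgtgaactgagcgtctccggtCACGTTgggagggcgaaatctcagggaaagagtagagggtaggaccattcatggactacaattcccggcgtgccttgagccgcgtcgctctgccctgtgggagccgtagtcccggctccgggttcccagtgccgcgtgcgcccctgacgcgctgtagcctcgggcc
D630024D03Rik: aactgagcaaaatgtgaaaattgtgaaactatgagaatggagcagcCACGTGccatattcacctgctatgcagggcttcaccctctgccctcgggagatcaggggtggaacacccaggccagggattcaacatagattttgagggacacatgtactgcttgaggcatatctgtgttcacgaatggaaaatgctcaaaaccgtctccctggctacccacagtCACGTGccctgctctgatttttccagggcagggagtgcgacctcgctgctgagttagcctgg

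The strongest of the 30, the Gm17382 region, carried 2 copies of CACGTG close together at the downstream end of the stretch. It had 53.1 and 45.4 reads per 10000000 library reads (RP10M, the level used for regions, not corrected for length) with 4-OHT, against 225 and 234 RP10M with EtOH. The Gm26901 region held no CACGTG in the bases shown and had 40.8 and 31.4 RP10M with 4-OHT and 138 and 153 RP10M with EtOH. The D730003I15Rik region, with 1 copy, had 32.0 and 27.5 RP10M with 4-OHT and 109 and 114 RP10M with EtOH. The 4-OHT libraries were below the EtOH libraries at all 3, as at 98% of all 4740 regions, so nothing about the motif follows from it. The Gm36495 region, with 1 copy, had 26.9 and 38.6 RP10M with 4-OHT and 119 and 90.2 RP10M with EtOH. The Capn15 region, with the CACGTT variant only, had 14.6 and 20.3 RP10M with 4-OHT and 57.0 and 54.4 RP10M with EtOH. The D630024D03Rik region, with 2 copies, had 7.28 and 9.17 RP10M with 4-OHT and 31.9 and 28.9 RP10M with EtOH.

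Counted over whole windows on both strands, CACGTG occurred in 15 of the 37 windows at far intergenic regions (40.5%), in 822 of 2139 windows at promoter regions (38.4%) and in 2349 of all 32851 RefSeq windows (7.15%). The AP-1 motif TGANTCA occurred in 24.3% of the 37 windows, against 3.65% at promoter regions and 7.81% of all windows, which for the 37 windows is a count of 9, at 8 members. The CRE motif TGACGTCA, which contains no AP-1 match as spelled here, was in 10.8% of them, against 3.65% and 1.79%, but these 4 windows lie at only 2 members. The ETS motif CCGGAAG was in 10.8%, against 20.6% at promoter regions and 8.86% of all windows. TEAD (GGAATG) and RUNX (TGTGGT) motifs were in 16.2% each, against 10.3% and 10.9% at promoter regions and 14.7% and 16.8% of all windows, with the 6 TEAD windows at 6 members and the 6 RUNX windows at 3. The CACGTT variant was in 5.41%, against 7.39% and 4.69%. A pair of CACGTG at 6 or 7 bases, known from clock gene promoters, was in 0 of the 37 windows, in 0.0935% at promoter regions and in 0.0152% of all windows. GC content averaged 60.8% in the 37 windows, 65.6% at promoter regions and 53.8% over all windows. In 13 members the motif CACGTG lay within the bases shared with the window. Matches describe these letters only, and the other members' sequences were not analysed here.

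After 4-OHT, BMAL1 signal was lower at nearly all far intergenic regions. The median member had 8.01 and 8.21 RP10M in the 4-OHT libraries against 23.3 and 22.1 RP10M in the EtOH libraries, and 464 of the 470 had both 4-OHT libraries below both EtOH libraries, which held for 98% of all 4740 regions. In edgeR's quasi-likelihood test on region counts, scaled to library totals and adjusted over all regions (Benjamini-Hochberg, adjusted p below 0.05), 446 members fell (94.9%, against 93.8% of all regions). None rose by that test, also at an unadjusted p under 0.05 and with DESeq2 on the same totals. DESeq2 called 337 of the 470 members lower, and 3329 of all 4740 regions. The median fitted log2 change was −1.62, a 3.08-fold loss, with quartiles at −1.95 and −1.32. A fall of at least 2-fold was fitted at 420 members, of at least 3-fold at 249 and of at least 4-fold at 103. That is 89.4%, 53.0% and 21.9% of members, against 90.6%, 55.9% and 24.6% of all regions. The median over members of the log2 level differed by −1.48 between 4-OHT and EtOH libraries (exact two-sided permutation test, p = 0.33, the smallest that 2 against 2 libraries allow).

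These falls are relative to library totals. TMM scaling on the regions themselves moves the median log2 change of all regions by 1.68 to 0.02. Then 14 of the 470 members were called lower and 8 higher than that common shift. Of all 4740 regions, 228 were called lower and 66 higher. The regions were called on EtOH libraries, and whether these were pooled for calling is not stated. The change was also taken without EtOH replicate 1 and without EtOH replicate 2, as given below under processing. The EtOH library kept may itself have helped to select the regions, so this does not remove the selection. The part that selection plays in the falls was not tested.

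**Figure D1:**
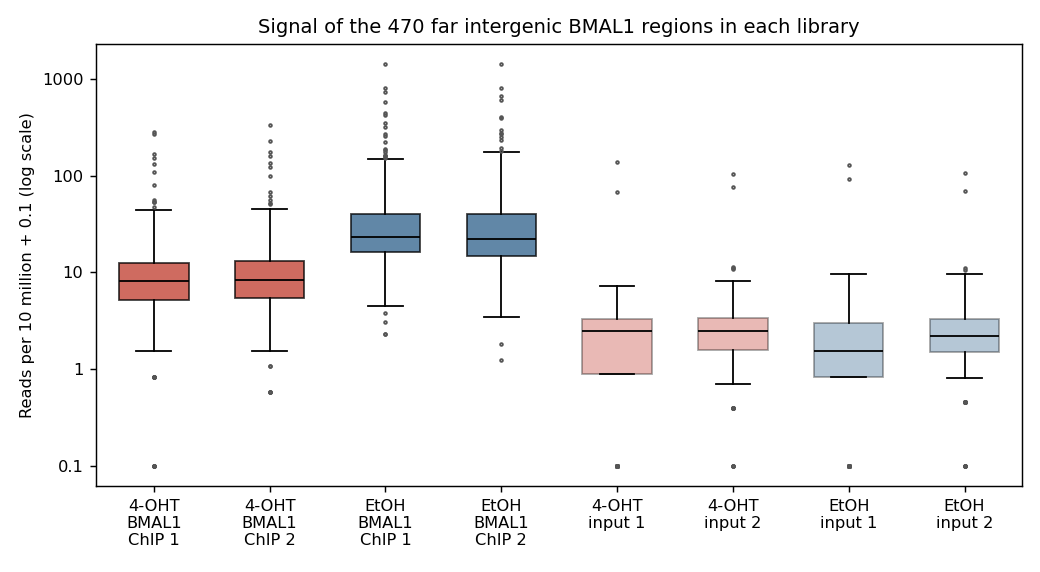
Box plots (median, quartiles, whiskers to 1.5 times the interquartile range, points beyond) of the signal of the 470 far intergenic regions in each of the 8 ChIP and input libraries, in reads per 10000000 library reads plus 0.1 on a log axis, scaled to library totals. The medians were 8.01 and 8.21 in the 4-OHT ChIP libraries and 23.3 and 22.1 in the EtOH ChIP libraries, above all 4 inputs.

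The loss far from genes was of the same order as at gene starts. The median fitted log2 change was −1.62 at far intergenic regions, against −1.64 at promoter regions, −1.72 at the 923 regions inside genes away from starts and −1.76 at the 403 intergenic regions within 20 kb of a start. Library by library, the median log2 level of far intergenic minus promoter regions was 0.00 and −0.08 with 4-OHT and −0.11 and −0.04 with EtOH. These values overlap, and their difference of 0.03 between treatments did not pass (exact permutation test, p = 0.67). Against the near intergenic regions the difference between treatments was 0.20 and against regions inside genes 0.18, with the 4-OHT libraries above the EtOH libraries in both, and p = 0.33 in the exact permutation test, the smallest possible. With 2 libraries a group, a smaller loss far from genes than in these 2 classes could not be called. In EtOH-treated cells the far intergenic members reached a highest mean of 1424 RP10M, against 6001 RP10M among promoter regions, and 58 members stood at 60 RP10M or more.

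The strongest members lay near genes of varied function. The strongest was 26886 bp upstream of Hlf (chr11:90417803-90418677, mm10), a PAR bZIP transcription factor gene and a known clock output, with 282 and 331 RP10M with 4-OHT against 1418 and 1430 RP10M with EtOH. It fell 4.62-fold (log2 change −2.21, SE 0.10, edgeR adjusted p = 1.9e-102). The next was 56639 bp downstream of the start of Rbx1, which encodes the RING subunit of cullin ubiquitin ligases (chr15:81522955-81523695), with 151 and 176 RP10M with 4-OHT and 804 and 804 RP10M with EtOH (4.88-fold lower). The third was 33562 bp upstream of Foxk1, a forkhead factor gene (chr5:142367319-142367935), with 133 and 135 RP10M with 4-OHT and 732 and 665 RP10M with EtOH (5.20-fold lower). At each of these the treatments stood far apart and the libraries of a treatment were close together.

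A pair of strong members lay downstream of the start of Prps1, a phosphoribosyl pyrophosphate synthetase gene on the X chromosome. The farther, 63557 bp away (chrX:140520160-140520979), had 111 and 122 RP10M with 4-OHT and 586 and 615 RP10M with EtOH. The nearer, 54298 bp away (chrX:140510901-140511456), had 56.0 and 68.6 RP10M with 4-OHT and 423 and 399 RP10M with EtOH. They fell 5.13-fold and 6.50-fold. The member 22599 bp upstream of Rps6ka1, a ribosomal S6 kinase gene, had 80.1 and 99.5 RP10M with 4-OHT and 444 and 410 RP10M with EtOH. Near Lsm3, a gene of the Sm-like ring of U6 snRNA, the values were 31.3 and 52.6 RP10M with 4-OHT and 319 and 298 RP10M with EtOH, a 7.07-fold fall. The strong members near Tomm20, a mitochondrial import receptor gene, and Ccne1, the cyclin E1 gene, fell 4.98-fold and 5.76-fold. Of these members and that near Hlf, none had an EtOH or 4-OHT input mean above that at Rbx1, 9.67 RP10M.

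Among the 10 members with the highest EtOH signal, the site 91322 bp downstream of the start of Axin2, a Wnt pathway inhibitor gene, stood apart. It had 270 and 230 RP10M with 4-OHT and 351 and 273 RP10M with EtOH, so the lower EtOH library barely exceeded the higher 4-OHT library, and its inputs averaged 121 RP10M with 4-OHT and 118 RP10M with EtOH. Its log2 change of −0.32 (SE 0.11, edgeR adjusted p = 0.0057) lost its call without EtOH replicate 1 (−0.13), without 4-OHT replicate 2 (−0.20) and when the input change was subtracted. The member 284318 bp upstream of Pex2, a peroxisome biogenesis gene, had 170 and 160 RP10M with 4-OHT and 186 and 195 RP10M with EtOH beside inputs of 72.0 RP10M with 4-OHT and 81.1 RP10M with EtOH, and its log2 change of −0.21 did not pass (adjusted p = 0.099). These 2 are the members with a mean input above 20 RP10M, as are 13 of the 4270 other regions, and whether input level bears on their small changes was not tested.

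**Figure D2:**
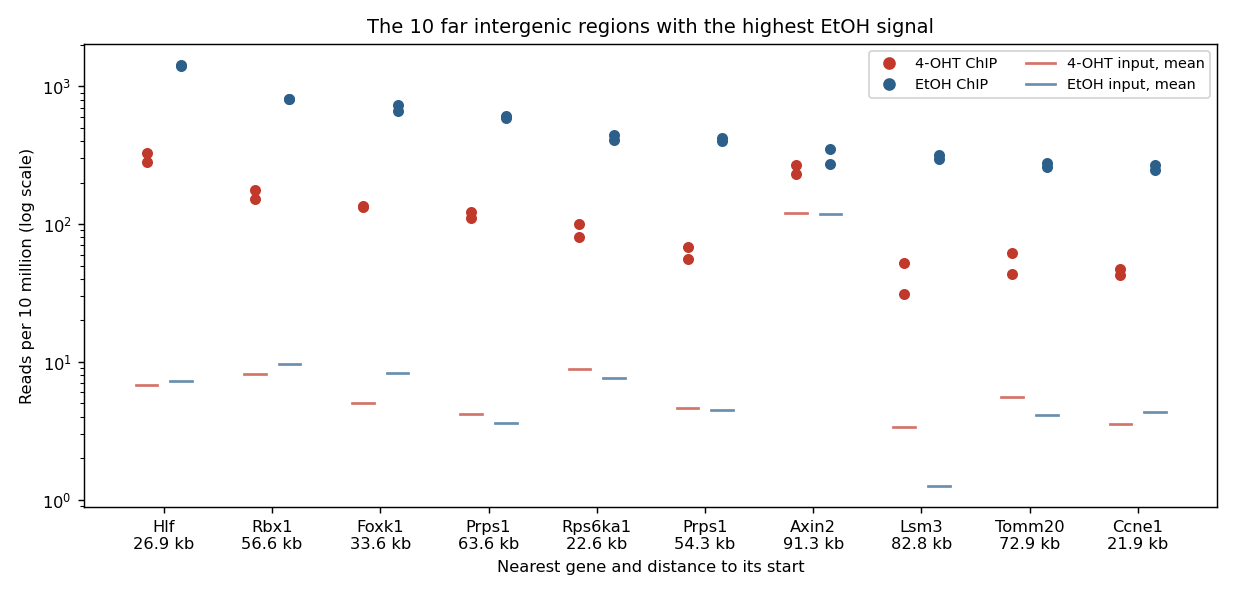
Signal in reads per 10000000 library reads (log axis, scaled to library totals) at the 10 far intergenic regions with the highest EtOH mean, labelled by nearest gene and distance. Points are the 2 ChIP libraries of each treatment (4-OHT left, EtOH right) and short lines the mean input. At 9 of the 10 the 4-OHT points lie well below the EtOH points, while at Axin2 they are close and the input reaches 118 to 121.

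Relative to the shift shared by all regions, the members called lower were strong ones, with EtOH means of 132 RP10M or more. Such calls favour regions with many reads, and level and depth were not separated by a test. The Dyrk1a member, with a log2 change of −2.87 (SE 0.44) with library totals and 24.0 RP10M with EtOH, was not called. With TMM scaling on the regions, the largest further fall among members called lower was at the Slc24a3 member (chr2:145214047-145214351). It lies near a gene for a potassium-dependent sodium-calcium exchanger and had 13.8 and 14.5 RP10M with 4-OHT and 133 and 131 RP10M with EtOH. Its log2 change was −3.21 with library totals and −1.52 relative to the shared shift (edgeR adjusted p = 1.4e-09). The members near 4930511E03Rik (−1.15), Lsm3 (−1.12), the nearer one at Prps1 (−1.003), and those near Lyplal1 (−0.83), Ccne1 (−0.83) and Foxk1 (−0.68) followed. Those near Phxr4, Tomm20, Rbx1, Kifc5b, Rps6ka1 and Hlf and the farther one at Prps1 were between −0.66 and −0.51. The 8 called higher than the shared shift included Axin2 (1.39) and Pex2 (1.48), whose inputs were high. Of the other 6, with input means of 0.970 to 4.45 RP10M, those near Foxd1, Fam92b, Alox5ap and Bbox1 were also not called lower with library totals, and those near Tbl1xr1 and A730020M07Rik were. Near Foxd1, a forkhead factor gene, the values were 18.9 and 12.6 RP10M with 4-OHT and 20.7 and 20.4 RP10M with EtOH. Near Bbox1 they were 8.01 and 6.28 RP10M with 4-OHT and 7.41 and 6.24 RP10M with EtOH, which overlap, and this was the only member with a fitted log2 change above 0 (0.05).

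By fold alone, the largest falls among members above the median EtOH signal of all regions were 9.25-fold at Slc24a3, 7.32-fold near Dyrk1a, 7.18-fold near 4930511E03Rik, 7.07-fold near Lsm3 and 6.50-fold at the nearer Prps1 member. The member 154121 bp downstream of the start of Dyrk1a, a protein kinase gene, had 5.09 and 1.93 RP10M with 4-OHT and 23.0 and 25.0 RP10M with EtOH. It was not above the 4-OHT input (edgeR adjusted p = 0.24), and its SE of 0.44 makes its place in this order imprecise. The smallest changes above the same median were, after Pex2 and Axin2, those 140344 bp from Tbl1xr1, 50651 bp from Pim1 and 60252 bp from Osmr, the oncostatin M receptor gene. The Pim1 member had 18.2 and 11.6 RP10M with 4-OHT and 27.4 and 23.2 RP10M with EtOH (log2 change −0.80, SE 0.32, edgeR adjusted p = 0.013). The Osmr member had 11.6 and 13.5 RP10M with 4-OHT and 33.3 and 17.0 RP10M with EtOH, so EtOH replicate 2 lay close to the 4-OHT libraries. The Pim1 and Osmr calls were lost without EtOH replicate 1, the Pim1 call also without 4-OHT replicate 2, and the Tbl1xr1 call without EtOH replicate 2. With the input change subtracted, the Osmr (−1.24, edgeR adjusted p = 0.069) and Tbl1xr1 (−0.67, adjusted p = 0.28) calls were lost too.

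The 24 members not called lower were weak sites apart from Pex2. They held a median of 45.5 ChIP reads over the 4 libraries, against 101 reads at called members. Their fitted changes were also smaller, with a median log2 change of −0.74, and 22 of the 24 lay above the members' upper quartile of −1.32. Smaller falls and lower depth were not separated by a test. By EtOH level, 80 of 101 members under 15 RP10M were called lower, 197 of 199 between 15 and 30 RP10M, 112 of 112 between 30 and 60 RP10M and 57 of 58 at 60 RP10M or more. The median log2 change in these 4 classes was −1.45, −1.50, −1.69 and −2.02. Promoter regions in the same classes had medians of −1.37, −1.49, −1.71 and −2.04. Of them, 605 of 804, 920 of 932, 623 of 625 and 583 of 583 were called lower. That is 75.2%, 98.7%, 99.7% and 100%, against 79.2%, 99.0%, 100% and 98.3% of members. Over the 470 members, the log2 EtOH level and the fitted log2 change had a Pearson r of −0.32 and a Spearman rho of −0.33, which is a description, since the EtOH level is part of both and members share their libraries. The corresponding r over promoter regions was −0.48. Between replicates the members' log2 levels had an r of 0.76 with 4-OHT and 0.95 with EtOH.

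**Figure D3:**
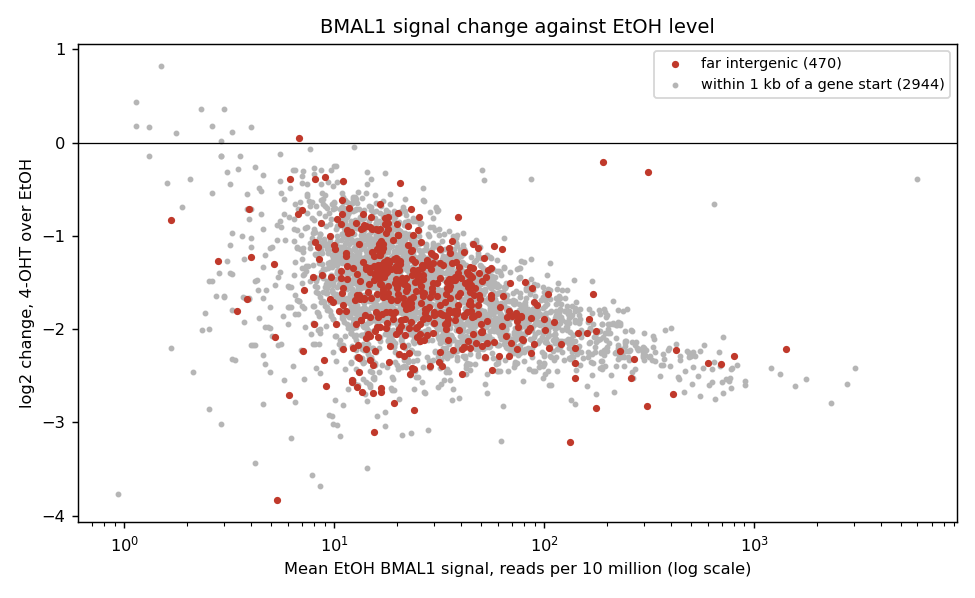
Fitted log2 change of BMAL1 signal (4-OHT over EtOH, scaled to library totals) against the mean EtOH signal in reads per 10000000 library reads (log axis), for the 470 far intergenic regions in red and the 2944 promoter regions in grey. The members lie within the cloud of promoter regions, and Pex2 and Axin2 are the 2 strong red points near 0.

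Distance from genes did not order the loss. The median log2 change was −1.64 for the 207 members at 20 to 50 kb, −1.60 for 144 at 50 to 100 kb, −1.56 for 79 at 100 to 200 kb and −1.63 for 40 farther than 200 kb, of which 38 were called lower. Over members, log10 distance had an r of 0.01 with the log2 change and of 0.00 with the log2 EtOH level. The median log2 level of members over 200 kb minus that of members at 20 to 50 kb differed by 0.05 between treatments (exact permutation test, p = 0.67). The member farthest from a gene start, 944231 bp from Ttll7, had 10.2 and 13.5 RP10M with 4-OHT and 34.1 and 34.6 RP10M with EtOH and fell 2.82-fold (log2 change −1.50), a call lost with the input change subtracted (−0.56, edgeR adjusted p = 0.61). The next in distance, 746945 bp from Inhba, the activin subunit gene, had 5.09 and 1.45 RP10M with 4-OHT and 17.0 and 11.3 RP10M with EtOH. The third, 598986 bp from Tbl1xr1, had 10.2 and 8.21 RP10M with 4-OHT and 23.0 and 15.3 RP10M with EtOH. Its fall (log2 change −1.05, adjusted p = 0.0057) lost its call when EtOH replicate 1 or 4-OHT replicate 2 was left out, and with the input change subtracted, where it was 0.0038.

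**Figure D4:**
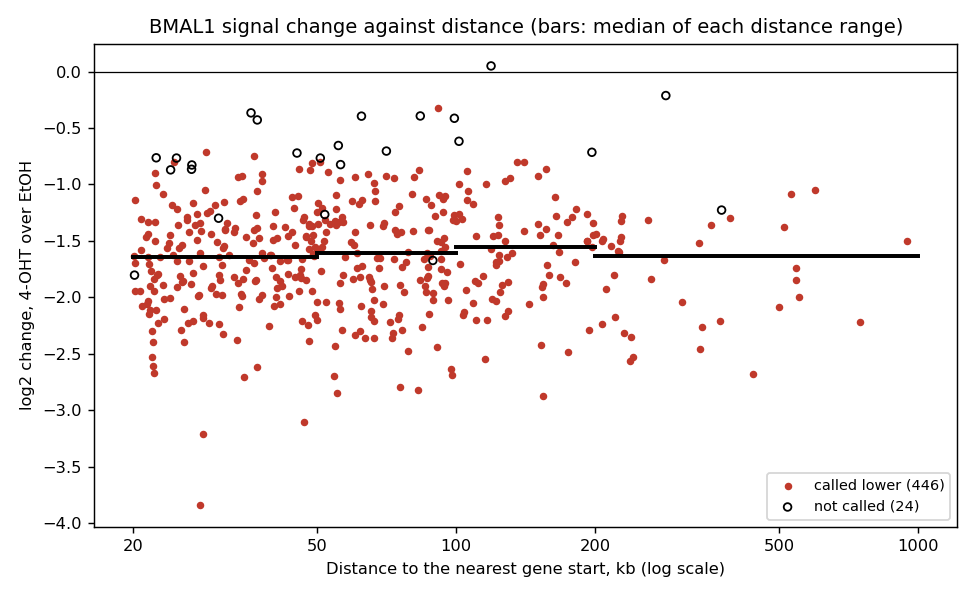
Fitted log2 change of BMAL1 signal (4-OHT over EtOH, scaled to library totals) of each far intergenic region against its distance to the nearest gene start in kb (log axis). Filled points were called lower, open points were not, and black bars give the median of each distance range, −1.64, −1.60, −1.56 and −1.63 with growing distance. The lowest point held 1 read in the 4-OHT libraries together.

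Medians by position relative to genes or to other BMAL1 regions ran from −1.67 to −1.45. The 275 members upstream of their nearest start had a median log2 change of −1.61 and the 195 downstream −1.65. Members inside a RefSeq gene had −1.48 and those outside −1.67. The library medians of inside minus outside were 0.12 and 0.17 with 4-OHT and 0.07 and −0.07 with EtOH. They differed by 0.15 between treatments (exact permutation test, p = 0.33, the smallest possible). With 2 libraries a group, a smaller loss inside RefSeq genes could not be called. The 34 members with another region within 1 kb had −1.45. Where the nearest gene also had a region within 1 kb of its own start, the median was −1.66 over 112 members, and −1.61 over the 358 others.

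Scaled to library totals, BMAL1 signal remained above input at most far intergenic regions after 4-OHT. In an edgeR fit over all 8 ChIP and input libraries, 382 of 470 members (81.3%, against 80.6% of all regions) stood above the 4-OHT input. With EtOH 469 did (99.8%, against 99.5% of all regions), which the peak calling on EtOH libraries had in part selected. With TMM factors over the regions, which set ChIP and input libraries to a common level there, 20 members were above input with 4-OHT and 24 with EtOH. The share of all regions with that scaling is not given here, so these counts do not set the members apart from other regions. Over members, the ratio to input had a median of 3.67-fold with 4-OHT and 12.4-fold with EtOH. After input was taken off, the median member kept 24.9% of its EtOH signal, against 24.2% at promoter regions, 22.7% inside genes and 22.5% at near intergenic regions. At Hlf 21.2% remained, at Lsm3 12.6% and at Slc24a3 8.46%. The fall exceeded the change of the input at 212 members (45.1%, against 50.5% of all regions), in a test that adds the error of the shallow input counts. In the inputs themselves edgeR called 0 members changed between treatments, and 0 of all regions. An unadjusted p under 0.05 was found at 21 of the 470 members, a count that this threshold alone could give. The median input log2 change was 0.131 over members and 0.128 over all regions.

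Several members shared a nearest gene. The 470 members had 381 distinct nearest genes, 58 of which were nearest to 2 or more members, 147 in all, and such members share a neighbourhood and may not be independent. Fam92b had 7 members between 52073 and 140096 bp away, of which 6 fell, with 4-OHT means of 4.96 to 20.4 RP10M and EtOH means of 11.03 to 77.8 RP10M. E130006D01Rik had 6, all called lower, Mir3089 had 5, of which 4 were called lower, and Dnajb12 had 4, all called lower. Tomm20 had 5, all called lower, with log2 changes of −2.32 to −1.24. Gse1, a coiled-coil protein gene, had 4, the strongest with 41.5 and 44.9 RP10M with 4-OHT and 175 and 177 RP10M with EtOH. Pim1, a serine/threonine kinase gene, also had 4, of which 3 fell, with log2 changes of −1.72 to −0.80. Genes with 3 members, all called lower, included Rybp, a Polycomb component gene, and Thbs2, a matricellular protein gene. Since 93.8% of all 4740 regions were called lower, these counts do not set any of these genes apart.

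Of 24 textbook CLOCK-BMAL1 target genes, 2 were the nearest gene of a far intergenic region, Hlf and Bhlhe40. The member 89164 bp upstream of Bhlhe40, the gene of the repressor DEC1 (chr6:108570931-108571465), had 18.9 and 21.7 RP10M with 4-OHT and 86.7 and 81.1 RP10M with EtOH. It fell 4.06-fold (log2 change −2.02, SE 0.23, edgeR adjusted p = 2.0e-17). Both genes also had a BMAL1 region within 1 kb of their own start, and both mRNAs were higher with 4-OHT while BMAL1 signal was lower. Hlf mRNA had 1.78 and 1.96 CPM with 4-OHT and 0.970 and 0.987 CPM with EtOH (log2 change 0.94, SE 0.18, edgeR adjusted p = 0.00077), a call that DESeq2 did not make (adjusted p = 0.078). Bhlhe40 mRNA had 113 and 121 CPM with 4-OHT and 99.7 and 89.7 CPM with EtOH (log2 change 0.31, adjusted p = 0.0032). That call was lost without EtOH replicate 2 (adjusted p = 0.48).

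Most genes nearest to the far intergenic regions were not called changed in mRNA. Of 381 nearest genes, 293 passed the expression filter, and edgeR called 16 lower and 10 higher with 4-OHT. The count of higher genes was 6 without 4-OHT replicate 2 and 4 without EtOH replicate 2. The shares were 5.46% lower, 3.41% higher and 8.87% in either direction, against 1.63%, 0.802% and 2.44% of all 13216 genes tested. The median mRNA log2 change of the 293 was −0.0020, against 0.0021 over all tested genes. Genes nearest to a member and with a BMAL1 region within 1 kb of their own start were called in 13 of 92 cases (14.1%) and those without one in 13 of 201 (6.47%). All tested genes with such a promoter region were called in 2.85% of cases. Among genes with a start within 100 kb of any member, 35 of 534 were called (6.55%). The rule favours genes with wide gaps beside them, and the part that gene spacing or expression level plays in these shares was not tested.

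The 16 nearest genes that fell encode proteins of varied kinds. Rbm20, a splicing regulator of titin, had 0.545 and 0.520 CPM with 4-OHT and 2.97 and 3.21 CPM with EtOH (log2 change −2.53, SE 0.19), and its member 22866 bp away was weak, with 12.8 RP10M with EtOH. Thbs2 had 239 and 249 CPM with 4-OHT and 499 and 459 CPM with EtOH (log2 change −0.97, SE 0.06). Tgfb2, a TGF-beta ligand gene, had 95.6 and 91.3 CPM with 4-OHT and 151 and 161 CPM with EtOH, and its member was 227155 bp away. The treatments did not overlap at these 3, but they were picked from genes called on the same libraries, so this adds nothing to the calls. Rybp had 57.6 and 51.0 CPM with 4-OHT and 86.2 and 94.7 CPM with EtOH. Atf3, a stress-induced bZIP factor gene whose member is the D730003I15Rik region printed above, had 11.2 and 10.6 CPM with 4-OHT and 17.4 and 17.8 CPM with EtOH. Smaller falls, with log2 changes of −0.59 to −0.37, were called for Rreb1, Gadd45g, Mef2a, Lipg, Vldlr, Gja1, Atl2 and Bcl9. Gja1, the connexin 43 gene, had its member 543901 bp away and stood at 345 CPM with 4-OHT and 467 CPM with EtOH. Those of Lifr, Cxcl12 and Ankrd1 (−0.25 to −0.23) lost their calls when 4-OHT replicate 2 or either EtOH replicate was left out.

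Of the 10 nearest genes that rose, Hlf had the largest change. Socs1, a suppressor of cytokine signalling, had 5.71 and 6.88 CPM with 4-OHT and 4.30 and 4.15 CPM with EtOH (log2 change 0.58, SE 0.12), and its call was lost without 4-OHT replicate 2 (adjusted p = 0.16). Ier5l had 28.3 and 35.6 CPM with 4-OHT and 21.7 and 23.2 CPM with EtOH. Shf, an adaptor gene with a member just inside the distance limit, had 18.6 and 19.8 CPM with 4-OHT and 14.4 and 14.4 CPM with EtOH. Log2 changes of 0.25 to 0.40 were called for Snai1, Irf2bp2, Hopx, Nrep and Ier5, and without EtOH replicate 2 none of these 5 was called. Of the genes nearest to the 10 strongest members, Hlf was called, and Rbx1, Foxk1, Prps1, Rps6ka1, Axin2, Lsm3, Tomm20 and Ccne1 had log2 changes between −0.03 and 0.17 that did not pass. Foxk1, for example, averaged 92.2 CPM with 4-OHT and 91.9 CPM with EtOH beside a member that fell 5.20-fold. By distance to a gene's closest member, 14 of 150 tested genes were called at 20 to 50 kb (9.33%) and 12 of 143 beyond 50 kb (8.39%), with 8 higher and 6 lower at 20 to 50 kb and 2 higher and 10 lower beyond, counts whose difference was not tested.

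**Figure D5:**
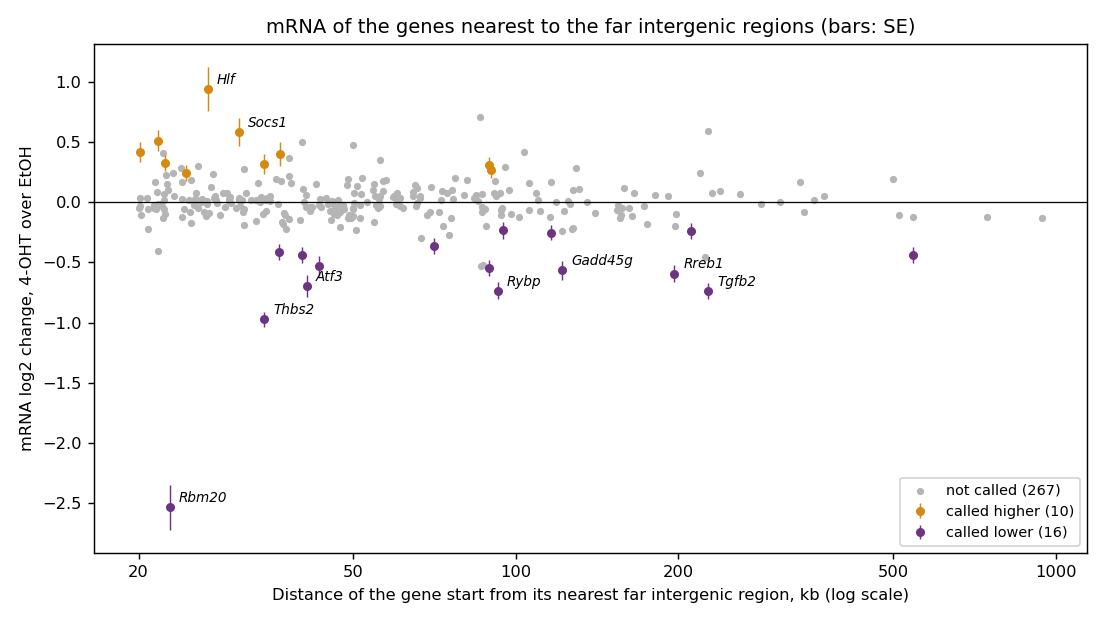
Log2 change of mRNA (4-OHT over EtOH, edgeR, TMM scaling) of the 293 tested genes nearest to a far intergenic region, against the distance in kb of the gene start from its nearest such region (log axis). Coloured points with SE bars are the 10 genes called higher and the 16 called lower, and those with a log2 change beyond 0.55 are named.

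Of the 32 genes whose RefSeq promoter windows the members overlapped, 8 were in the count table, where their listed starts lie elsewhere. All 8 were tested for mRNA and none was called. Of all 13216 genes tested 2.44% were called, so nothing about these 8 follows from it. Capn15 (Solh) averaged 31.0 CPM with 4-OHT and 32.1 CPM with EtOH, and Lcor, a nuclear receptor corepressor gene, 10.9 CPM with 4-OHT and 13.4 CPM with EtOH (log2 change −0.29, edgeR adjusted p = 0.082). Gtdc1, Pak1, Rlf, St7, Strbp and Vgll4 had log2 changes between −0.08 and 0.05. The other 24 were lncRNA genes that were not in the count table by symbol or synonym, so their transcripts were not analysed here.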

How the data were processed

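BMAL1 ChIP-seq, ChIP input and mRNA libraries of mouse cells were compared between 4-OHT and EtOH. Per the submitters' processing notes the build is mm10 and bedtools 2.25.0, featureCounts and DESeq2 were used. No aligner is named in the labels or headers. The authors deposited a read count per region and library for 4740 regions whose names mark them as MACS2 peaks of the control, with the peak caller's fold enrichment and −log10 q-value, used here to describe regions only. Whether libraries were pooled for calling is not stated. The authors' table of signal per region carries RPKM in its name, yet each value is 5 more than reads per 10000000 of the library (RP10M) without division by length, and library totals came out of it as whole numbers. Gene counts were made with featureCounts 1.5.0-p1 with reverse-strand counting, per the file headers. The authors' own table of gene comparisons was not used.

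Genes listed at several places (192) were split into copies where exons were over 1 Mb apart or on another chromosome or strand, and a region's nearest gene was that with the closest start. Region counts were fitted with edgeR 4.0.16 (R 4.3.3, robust quasi-likelihood, library totals, no filter) over all regions, on the 4 ChIP libraries, the 4 inputs, or all 8. Gene counts were fitted with edgeR, TMM factors and its default expression filter. Benjamini-Hochberg adjustment ran over all features tested. Medians per library, as log2(RP10M + 0.1), were compared by exact permutation over libraries. The scripts were tested on simulated data. With 2 libraries a group precision rests on few values. No genome sequence was used, so motifs were searched only in RefSeq promoter windows, on both strands, and 12 members on chromosome 18 had no RefSeq start searched. Regions named are the 10 strongest members, the 5 largest falls and 5 smallest changes above the median EtOH signal of all regions, and the 3 farthest. Named too are strong members that share a nearest gene, those nearest to textbook clock targets and the 8 strongest that overlap a RefSeq promoter window. Genes named are their nearest genes and all nearest genes called. Phxr4, Foxd1, Fam92b, Alox5ap, Bbox1, A730020M07Rik and Cpeb4, and genes with 4 or more members, were added after their values were seen. The members and lists were chosen with earlier results of these data known.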

Additional observations from a re-analysis of the deposited data

How the results depend on the processing

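Scaling decides the ChIP counts. TMM factors over the regions gave 14 members lower and 8 higher, and DESeq2 with its own size factors 12 lower and 2 higher. Of all 4740 regions, TMM factors gave 228 lower and 66 higher, and DESeq2 with its own size factors 141 and 13. TMM factors also left 20 members above input with 4-OHT and 24 with EtOH, counts given without the share of all regions. The same factors turned the difference of library medians to 0.23. With library totals the count of falls stayed within 1.5 times of 446 with DESeq2 (337), a filter on low counts (448), a limit of 10 kb (568), unsplit gene limits (409 of 431 members), without regions under 50 bp (443) and without regions of high input (445). The last and the unsplit limits were chosen after seeing the data. A limit of 50 kb, which leaves fewer members, gave 249, and subtracting the input change gave 212. The difference of medians was −1.43 and −1.38 with pseudocounts of 0.5 and 1. Leaving out 1 library gave 384 to 432 falls, 278 to 381 members above the 4-OHT input, 466 to 470 above the EtOH input, medians of −1.51 to −1.44, and differences from promoter regions of −0.01 to 0.07.

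The median log2 change over all members was 0.059 with TMM factors and 0.072 with DESeq2's own size factors, so values above 0 were common. Only named regions are listed here. Among them, log2 changes were above 0 with TMM factors and with DESeq2 size factors at the members near Axin2 (1.39 and 1.40), E2f6 (0.0797 and 0.0693), Osmr (0.76 and 0.75), Solh (0.0544 and 0.0506), Pex2 (1.48 and 1.502), Ttll7 (0.19 and 0.19), A530013C23Rik (0.55 and 0.57) and 1700011L22Rik (0.0626 and 0.0781). The same held at the 2 named Pim1 members, 53224 bp (0.34 and 0.35) and 50651 bp away (0.89 and 0.94), and the 2 Tbl1xr1 members, 598986 bp (0.64 and 0.67) and 140344 bp away (0.89 and 0.90). The member 598986 bp from Tbl1xr1 stood at 0.0038 with the input change subtracted. With the smallest changes, calls near Axin2, Osmr, Pim1 and Tbl1xr1 also ended with DESeq2 on library totals, and each of them without at least 1 library.

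For nearest genes, DESeq2 gave 15 lower and 8 higher and no expression filter 18 and 10. Without 1 library 13 to 18 were lower and 4 to 13 higher, with 6 higher without 4-OHT replicate 2 and 4 without EtOH replicate 2. Genes within 100 kb gave 17 lower and 18 higher. A replicate block gave 439 falls and 0 rises, 376 and 470 members above input with 4-OHT and EtOH, and 13 genes lower and 7 higher. Libraries of the same number did not deviate together (correlation of deviations 0.02 for ChIP, 0.01 for input and −0.18 for mRNA), so mRNA pairs were also crossed, after seeing the data, which gave 35 lower and 28 higher. The cause of these shifts was not tested. The planned split of members by CACGTG was not run. At this depth, weak members and weakly expressed genes limit what could be called.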
